A study of Homo sapiens with 9 samples.

Results

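WIPI1, WIPI2, WDR45, WDR45B, ATG2A, ATG2B, ATG9A, VMP1 and TMEM41B act at the step of autophagy in which the phagophore, the cup-shaped membrane that will enclose cargo, grows at the endoplasmic reticulum. They were taken by gene symbol from the table of deposited counts, in which Ensembl identifiers were mapped to symbols, and all 9 were found among 20263 genes. mRNA of HaCaT cells, a human epidermal keratinocyte line that is immortalised, was sequenced in 3 groups of 3 libraries. The glabridin group was laden with melanosomes and also given glabridin, an isoflavan from licorice root. The melanosome group received melanosomes, the pigment organelles that keratinocytes take up from melanocytes, and no glabridin. The control group, titled Blank and labelled WT, received neither. HaCaT is the shared background of every library, and there was no group given glabridin without melanosomes, so what glabridin does to cells that hold no melanosomes was not measured. The labels state neither doses nor times, nor where the melanosomes came from.

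Autophagy begins when a kinase complex and a lipid kinase complex mark the endoplasmic reticulum with the lipid PI3P. WIPI1, WIPI2, WDR45 and WDR45B are beta-propeller proteins that bind PI3P, and WIPI2 brings the conjugation machinery that attaches ATG8 proteins to the membrane. ATG2A and ATG2B are rod-shaped proteins that carry lipids from the endoplasmic reticulum to the growing phagophore. ATG9A, the scramblase of the seed vesicles, and VMP1 and TMEM41B, scramblases of the endoplasmic reticulum, move lipids between the leaflets at either end of that bridge. In skin this route serves, among other tasks, the breakdown of melanosomes inside keratinocytes.

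Library totals ran from 39653425 to 46690787 deposited counts. The 8 keratinocyte markers summed to 6149 to 8746 CPM (counts scaled to the size of the library) in glabridin libraries, 8530 to 9295 in melanosome libraries and 10120 to 10291 in control libraries, with none at 0. The largest parts were KRT5, averaging 2249, 3546 and 5202 CPM in that order of groups, and KRT14, averaging 2321, 3131 and 2731. Averages of DSG3, KRT16, KRT17 and SFN were higher in glabridin than in melanosome libraries, and those of KRT5, KRT14, TP63 and KRT6A were lower. The 15 melanocyte markers summed to 1973 to 3712 CPM in glabridin libraries, 3354 to 3491 in melanosome libraries and 162 to 169 in control libraries. Single genes made up most of the melanocyte sums. In control libraries this was GPNMB, which averaged 145 CPM there, 185 in melanosome and 218 in glabridin libraries. In the other groups it was PMEL, at 1602 ± 676 CPM in glabridin, 2109 ± 65.8 in melanosome and 3.20 ± 0.315 in control libraries (SD). In control libraries KIT, TYR, OCA2 and TRPM1 were at 0 and 8 of the 15 had at most 3 counts in each library, whereas no melanocyte marker was at 0 in the melanosome or glabridin groups. Fibroblast markers were low, at 12.8 to 14.8 CPM in all in glabridin libraries, 18.8 to 20.3 in melanosome libraries and 42.2 to 45.5 in control libraries. In such bulk libraries fewer cells of a type and less RNA per cell cannot be told apart, and which cells or material a transcript came from was not tested. Whether replicates were separate cultures is not in the labels, so every p-value rests on a spread between libraries that may be technical only.

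Addition of glabridin to melanosome-laden cells went with higher transcript levels of most of the 9 genes. In edgeR's quasi-likelihood test, adjusted over 13912 genes and called at an adjusted p under 0.05, WIPI1, WIPI2, WDR45, WDR45B, ATG9A, VMP1 and TMEM41B rose and ATG2A fell in glabridin against melanosome libraries. That is 8 of 9 genes called, where 43.9% of all genes tested were called, 23.7% higher and 20.2% lower. The median log2 change was 0.37 over the 9 genes and 0.01 over all genes tested. ATG2B was the exception, at -0.17 ± 0.14 (log2, SE), with an edgeR adjusted p of 0.348. The libraries of the 2 groups did not overlap in CPM for 8 of the 9 genes, 7 higher and 1 lower, where this held for 50.2% of all genes, 26% higher and 24.2% lower. In deposited TPM, which carries no scaling factor, 6 were without overlap, 5 higher and 1 lower, beside 14.6% of all genes higher and 37.4% lower, and WIPI2, TMEM41B and ATG2B overlapped.

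Loading with melanosomes alone went with a large rise of WIPI1 and smaller changes of either sign. WIPI1, ATG9A and VMP1 rose and ATG2B and TMEM41B fell in melanosome against control libraries, which is 5 of 9 genes, where 62.5% of all genes tested were called, 29.5% higher and 33% lower. The share of the 9 genes called was thus no higher than the share of all genes. WIPI1 stood apart by size, at 7.65-fold, and its log2 change was above that of 93.2% of genes tested. The other called changes lay between -0.84 and 0.45 on the log2 scale. WIPI2, WDR45, WDR45B and ATG2A did not pass the test in this comparison. Libraries did not overlap in CPM for 7 genes, 5 higher and 2 lower, where this held for 76.1% of all genes, 35% higher and 41.1% lower. In TPM all 9 were without overlap, 7 higher and 2 lower, beside 46% of all genes higher and 28.1% lower.

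Glabridin and control libraries differed in 7 of the 9 genes, where 70.3% of all genes tested were called, 37.6% higher and 32.7% lower. WIPI1, WDR45, WDR45B, ATG9A and VMP1 were higher and ATG2A and ATG2B lower in glabridin libraries, and WIPI2 and TMEM41B did not pass the test. Those 7 genes were also the ones without overlap in CPM, 5 higher and 2 lower, where this held for 73.2% of all genes, 38.7% higher and 34.4% lower. The counts were the same in TPM, beside 38.2% of all genes higher and 33.3% lower. This comparison shares its glabridin libraries with the first and its control libraries with the second, so the 3 are not independent of each other. How many called genes rose depended on the scaling between libraries. With library totals alone the median gene moved to -0.17 in glabridin against melanosome libraries and to 0.11 in melanosome against control libraries (log2), against 0.01 and -0.06 with TMM factors. The share of called genes that were higher then became 29.05% in glabridin against melanosome and 66.0% in melanosome against control, where TMM gave 54.0% and 47.2%. With library totals alone 7 of the 8 calls between glabridin and melanosome libraries held, and WIPI2 did not.

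**Figure D1:**
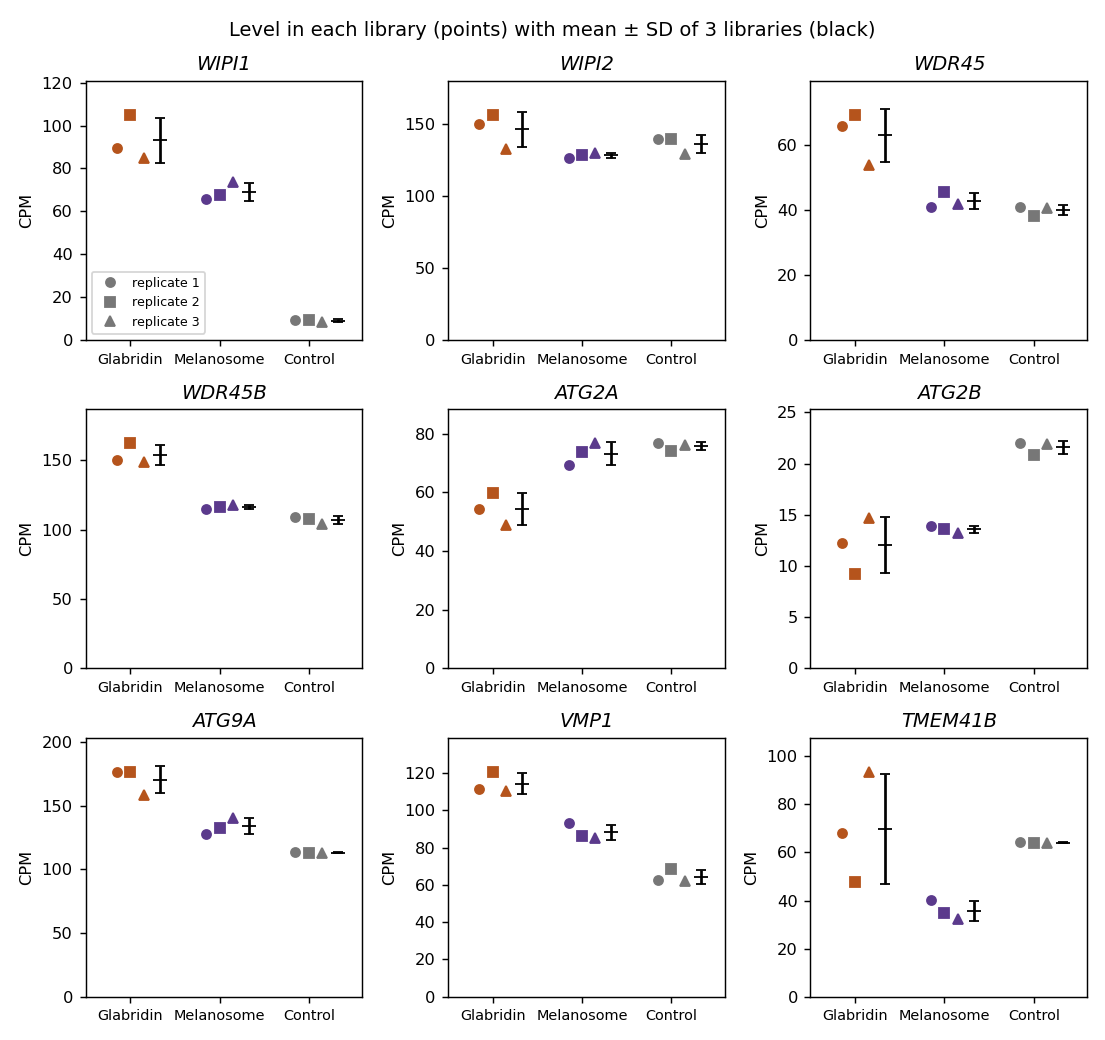
CPM (y axis, linear, from 0) of each gene in each library, by group on the x axis; circles, squares and triangles are replicates 1, 2 and 3, and black bars are the mean ± SD of 3 libraries. WIPI1 lay between 84.7 and 105 CPM with glabridin, between 65.7 and 73.6 with melanosomes alone and below 10 in control, while TMEM41B spread from 47.7 to 93.5 CPM within the glabridin group.

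The plot of levels by library shows 3 kinds of pattern: a step up past the test both with melanosomes and with glabridin (WIPI1, ATG9A, VMP1), a step past the test with glabridin and none past it with melanosomes (WDR45 and WDR45B up, ATG2A down), and a fall with melanosomes (ATG2B, TMEM41B), with WIPI2 in none of these. The promoters of 3 genes are shown because of these patterns: WIPI1 had the largest change from control, WIPI2 is its closest paralog and changed little, and VMP1 rose in every comparison. Each is taken from RefSeq (GRCh38.p14), with 250 bases before and 50 after the annotated start, read 5′ to 3′ on the gene's strand. They lie at chr17:68457447-68457746 on the minus strand for WIPI1, chr7:5189983-5190282 on the plus strand for WIPI2 and chr17:59707404-59707703 on the plus strand for VMP1. Capitals mark the GC box GGGGCGGGG in WIPI1 and WIPI2 and the XBP1 core TGACGTG in VMP1.
WIPI1: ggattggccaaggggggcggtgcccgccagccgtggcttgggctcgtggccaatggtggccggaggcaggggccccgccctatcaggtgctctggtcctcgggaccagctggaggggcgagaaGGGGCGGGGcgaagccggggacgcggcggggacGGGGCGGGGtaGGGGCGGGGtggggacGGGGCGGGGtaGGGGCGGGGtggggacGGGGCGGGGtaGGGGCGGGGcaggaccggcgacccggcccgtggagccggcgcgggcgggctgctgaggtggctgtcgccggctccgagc
WIPI2: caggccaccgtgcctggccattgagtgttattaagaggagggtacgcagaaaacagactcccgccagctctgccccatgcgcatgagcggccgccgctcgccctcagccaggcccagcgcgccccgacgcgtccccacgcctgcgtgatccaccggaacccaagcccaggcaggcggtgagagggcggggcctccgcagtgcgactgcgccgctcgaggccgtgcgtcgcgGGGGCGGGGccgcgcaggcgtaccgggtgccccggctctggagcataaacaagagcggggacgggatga
VMP1: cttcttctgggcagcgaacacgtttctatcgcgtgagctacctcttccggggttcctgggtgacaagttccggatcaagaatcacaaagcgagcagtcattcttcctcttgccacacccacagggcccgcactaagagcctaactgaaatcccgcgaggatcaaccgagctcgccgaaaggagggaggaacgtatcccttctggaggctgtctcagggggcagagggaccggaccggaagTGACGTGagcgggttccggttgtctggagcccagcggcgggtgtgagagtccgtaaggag

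The WIPI1 window held 7 copies of GGGGCGGGG between positions -127 and -29 from the start, and the WIPI2 window held 1 at -19. Of 35116 RefSeq promoter windows of this length, 15.7% held the GC box on either strand, and 19 windows (0.0541%) held 7 or more. Among the 10 windows found for 8 of the 9 genes it occurred in 5, those of WIPI1, WIPI2, ATG2B, ATG9A and TMEM41B. The motif TGACGTG, at -10 in VMP1, was in 1.97% of all windows. The E-box CACGTG (7.26% of all windows), the ATF4 composite element TTGCATCA (0.866%), the ER stress element (CCAAT and CCACG with 9 bases between, 0.0769%) and the CRE TGACGTCA (1.85%) were in none of the 10 windows. The M-box core CATGTG (11.1% of all windows) was found in a second WIPI2 window alone. Every motif was searched on both strands, a GC box may overlap its neighbour, and a match or its absence in these letters is a description only.

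WIPI1 (chromosome 17, 68420948 to 68457513, minus strand, GRCh38) encodes a PI3P-binding protein that gathers on phagophores. It had 89.7, 105 and 84.7 CPM in glabridin libraries, 65.7, 67.6 and 73.6 CPM in melanosome libraries and 9.30, 9.43 and 8.28 CPM in control libraries. The 3 groups did not overlap, and control libraries were far below the rest. Melanosome libraries were higher than control by 2.94 ± 0.10 (log2, SE; edgeR adjusted p = 5.24e-09). Glabridin libraries were higher than melanosome libraries by 0.43 ± 0.09, or 1.35-fold (edgeR adjusted p = 0.00305), and higher than control by 3.37 ± 0.10, or 10.3-fold (edgeR adjusted p = 1.35e-09). The second step was small beside the first, and with library totals alone it was 0.25 (edgeR adjusted p = 0.0254). WIPI1 shares 828 exonic bases, 24.3% of its own, with ARSG on the opposite strand in GENCODE release 29, and whether counting used strand is not given. ARSG averaged 2.97 CPM in glabridin, 3.40 in melanosome and 0.787 in control libraries, far below WIPI1. The melanocyte marker sum moved with WIPI1 between melanosome and control libraries. Between glabridin and melanosome libraries it did not, since WIPI1 was higher in each glabridin library. The sum ran there from 1973 to 3712 CPM in glabridin and from 3354 to 3491 in melanosome libraries. The part of these markers in the WIPI1 change was not tested. Within the glabridin group, replicate 2 had both the highest WIPI1 and the highest melanocyte sum, at 3712 CPM against 2372 and 1973 in replicates 1 and 3.

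WIPI2 (chromosome 7, 5190188 to 5233826, plus strand) encodes the family member that recruits ATG16L1. Its level was 149.6, 156 and 133 CPM in glabridin libraries, 126, 128 and 129.9 CPM in melanosome libraries and 139, 139.7 and 129 CPM in control libraries. In CPM glabridin libraries lay above melanosome libraries, with a narrow gap, and overlapped control, and in TPM glabridin and melanosome libraries overlapped. The difference between glabridin and melanosome libraries was 0.19 ± 0.07 (log2, SE; edgeR adjusted p = 0.0443). That call was lost in 17 of 20 alternatives, over which the adjusted p ran from 0.00109 to 0.986, and the mean TPM of the 2 groups was 79.8 and 79.7. Melanosome libraries differed from control by -0.09 ± 0.07 (edgeR adjusted p = 0.287) and glabridin libraries from control by 0.10 ± 0.07 (edgeR adjusted p = 0.200), which passed the test without glabridin replicate 3 at 0.17 (edgeR adjusted p = 0.0198). WIPI2 values thus lay between -0.09 and 0.19 on the log2 scale, and the direction between melanosome and control depended on the scaling.

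WDR45 and WDR45B are the more distant arm of the family. WDR45 (chromosome X, 49071470 to 49101170, minus strand), whose loss causes a neurodegeneration with brain iron accumulation, had 65.6, 69.2 and 53.8 CPM in glabridin, 40.9, 45.5 and 41.7 in melanosome and 40.8, 38.1 and 40.5 in control libraries. Glabridin libraries were above both other groups, and melanosome libraries lay just above control. WDR45 rose by 0.56 ± 0.10 (log2, SE; edgeR adjusted p = 8.68e-04) against melanosome libraries and by 0.66 ± 0.10 (edgeR adjusted p = 1.06e-04) against control. Between melanosome and control libraries the difference was 0.10 ± 0.10 (edgeR adjusted p = 0.374). WDR45 shares 757 exonic bases, 13.9% of its own, with PRAF2 on the same strand, which averaged 9.22 CPM in glabridin, 6.70 in melanosome and 3.81 in control libraries.

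WDR45B (chromosome 17, 82614562 to 82648553, minus strand), the closest relative of WDR45, had 150.2, 162 and 149 CPM in glabridin, 115, 116 and 117 in melanosome and 109, 108 and 104 in control libraries. The 3 groups did not overlap, and the step between glabridin and melanosome was the wider one. It rose by 0.40 ± 0.06 against melanosome libraries (edgeR adjusted p = 2.12e-04) and by 0.52 ± 0.06 against control (edgeR adjusted p = 1.02e-05). Between melanosome and control libraries the value was 0.12 ± 0.06 (edgeR adjusted p = 0.0830), which passed the test under other scaling factors and turned to -0.08 when GC content and length were corrected. The TPM ratio of WDR45 to WDR45B was 0.275 in glabridin, 0.248 in melanosome and 0.251 in control libraries, with exact two-sided permutation p-values of 0.2 for glabridin against melanosome, 1 for melanosome against control and 0.3 for glabridin against control.

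Per length, the family sum was larger in both melanosome-laden groups, in TPM, which carries no scaling factor. From control to melanosome libraries the mean TPM of WIPI1 rose 8.68-fold. Those of WIPI2, WDR45 and WDR45B rose 1.07-fold, 1.21-fold and 1.23-fold, and edgeR with TMM factors called none of these. The 4 genes summed to 371.8 ± 9.24 TPM in glabridin, 325.5 ± 3.65 TPM in melanosome and 214 ± 5.56 TPM in control libraries (SD, n = 3 each). WIPI1 took 27.6% ± 1.03 of this sum in glabridin, 26.6% ± 1.00 in melanosome and 4.65% ± 0.201 in control libraries. WDR45B was the most abundant of the 4 in each group, with 39.96% ± 1.53 in glabridin, 39.2% ± 0.521 in melanosome and 48.4% ± 0.170 in control libraries. WIPI2 held 21.5% ± 0.628 in glabridin, 24.5% ± 0.229 in melanosome and 34.8% ± 0.599 in control libraries. The WIPI1 to WIPI2 ratio of TPM was 1.28 in glabridin, 1.09 in melanosome and 0.133 in control libraries. The log2 ratio was higher by 0.24 in glabridin than in melanosome libraries and by 3.02 in melanosome than in control libraries. The groups were apart in both cases, at an exact two-sided permutation p of 0.1 (0.2 adjusted over the 12 ratio tests), the smallest that 3 against 3 libraries can give.

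**Figure D2:**
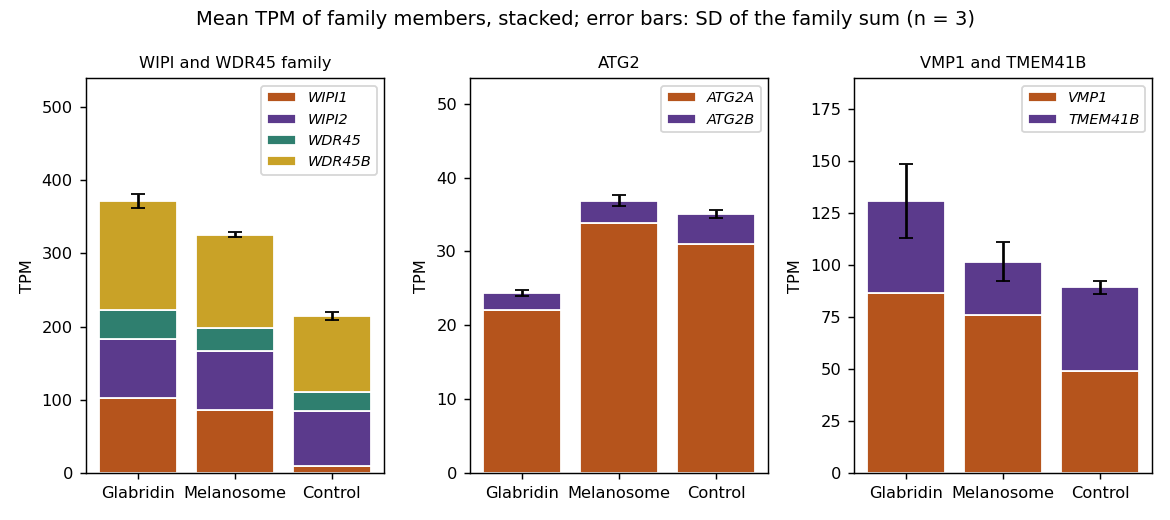
Mean TPM (y axis, linear, from 0) of the members of 3 families, stacked by gene, in glabridin, melanosome and control libraries; error bars are the SD of the family sum over 3 libraries. The WIPI1 layer is 103 TPM with glabridin, 86.6 with melanosomes and 9.98 in control, the ATG2 sum is lowest with glabridin at 24.4 TPM, and the TMEM41B layer is thinnest with melanosomes at 25.4 TPM.

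Both lipid carriers were lower in glabridin than in control libraries, ATG2A by a fall past the test between glabridin and melanosome libraries and ATG2B by one between melanosome and control libraries. ATG2A (chromosome 11, 64894546 to 64917248, minus strand), the more abundant carrier, had 54.4, 59.8 and 48.8 CPM in glabridin, 69.2, 73.7 and 76.7 in melanosome and 76.7, 74.1 and 76.2 in control libraries. Each glabridin library lay below each of the other 6, and melanosome and control libraries overlapped in CPM, while in TPM melanosome libraries lay above control. ATG2A fell by 0.43 ± 0.08 against melanosome libraries (log2, SE; edgeR adjusted p = 0.00139) and fell by 0.48 ± 0.08 against control (edgeR adjusted p = 2.86e-04). It was the 1 gene of the 9 that was lower in glabridin than in melanosome libraries past the test. Between melanosome and control libraries its value of -0.05 ± 0.08 (edgeR adjusted p = 0.613) had no stable sign across alternatives.

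ATG2B (chromosome 14, 96279202 to 96363870, minus strand), its paralog, was the scarcest of the 9, with 367 to 960 counts per library. It had 12.3, 9.22 and 14.7 CPM in glabridin, 13.9, 13.6 and 13.2 in melanosome and 21.99, 20.9 and 21.9 in control libraries. Control libraries were the highest, and glabridin libraries spanned the melanosome range. ATG2B fell by 0.67 ± 0.14 in melanosome against control libraries (edgeR adjusted p = 0.00193) and fell by 0.84 ± 0.14 in glabridin against control libraries (edgeR adjusted p = 3.07e-04). ATG2B is long, with 14778 exonic bases in GENCODE, more than 96.8% of the genes tested. With offsets on GC content and length its changes shrank to -0.27 in melanosome and -0.29 in glabridin against control, still past the test (edgeR adjusted p = 0.00731 and 0.00442). Across all genes tested, the Spearman correlation of the log2 change with length was -0.154 and with GC content 0.302 in melanosome against control libraries, over 13907 genes that are not independent.

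Together ATG2A and ATG2B summed to 24.4 ± 0.436 TPM in glabridin, 36.9 ± 0.762 in melanosome and 35.1 ± 0.524 in control libraries (SD, n = 3 each), and ATG2A made up 90.5% of the sum in glabridin, 92.0% in melanosome and 88.3% in control libraries. The ATG2A to ATG2B ratio was 9.83 in glabridin, 11.6 in melanosome and 7.53 in control libraries. Its log2 value was 0.62 higher in melanosome than in control libraries, where the groups were apart (exact two-sided permutation p = 0.1, 0.2 adjusted over 12). Between glabridin and melanosome libraries it differed by -0.24, with overlap (exact two-sided permutation p = 0.5).

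ATG9A (chromosome 2, 219219380 to 219229717, minus strand), the scramblase of the vesicles that seed the phagophore, had 177, 177 and 158 CPM in glabridin, 128, 133 and 141 in melanosome and 114, 113 and 113 in control libraries. The 3 groups did not overlap, and control libraries lay within a narrow range. Glabridin libraries were higher than melanosome libraries by 0.35 ± 0.06 (log2, SE; edgeR adjusted p = 0.00109) and than control by 0.59 ± 0.06 (edgeR adjusted p = 9.62e-06). Melanosome libraries were higher than control by 0.24 ± 0.06 (edgeR adjusted p = 0.00622). That last call was lost with offsets on GC content and length, which gave -0.02 (edgeR adjusted p = 0.697), while the glabridin against melanosome value became 0.46. In GENCODE, 1833 exonic bases of ATG9A, 38.8% of its own, are shared with AC068946.2, a protein-coding gene model on the same strand. The transcript length implied by the deposited FPKM, 7865 to 7870 bases, differs from the 4724 exonic bases of that annotation, and which gene model was counted is not stated. Its paralog ATG9B was not called between glabridin and melanosome libraries, at 0.96 ± 0.80 (edgeR adjusted p = 0.363).

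VMP1 (chromosome 17, 59707192 to 59842255, plus strand), a scramblase of the endoplasmic reticulum that is needed to release growing phagophores from it, had 112, 121 and 110.5 CPM in glabridin, 92.9, 86.3 and 85.0 in melanosome and 62.3, 68.5 and 62.0 in control libraries. The 3 groups did not overlap and stood in order. VMP1 rose by 0.37 ± 0.07 in glabridin against melanosome libraries (log2, SE; edgeR adjusted p = 0.00118), by 0.45 ± 0.07 in melanosome against control (edgeR adjusted p = 2.05e-04) and by 0.83 ± 0.07 in glabridin against control (edgeR adjusted p = 1.42e-06). With WIPI1 and ATG9A it was 1 of 3 genes that rose in all 3 comparisons. The gene holds the microRNA precursor MIR21, whose 72 bases overlap an annotated exon of VMP1 and which was not analysed here.

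TMEM41B (chromosome 11, 9280654 to 9314780, minus strand), which works beside VMP1 in the same membrane, had 68.0, 47.7 and 93.5 CPM in glabridin, 40.2, 34.8 and 32.2 in melanosome and 64.2, 64.1 and 63.9 in control libraries. Glabridin libraries ranged from below control to above it and in CPM lay above each melanosome library, while control libraries were almost equal. In TPM glabridin replicate 2, at 28.2, lay below melanosome replicate 1, at 29.5. TMEM41B fell by 0.84 ± 0.19 in melanosome against control libraries (edgeR adjusted p = 0.00322). It was higher in glabridin than in melanosome libraries by 0.96 ± 0.19 (edgeR adjusted p = 0.00226), the largest change of the 9 genes in that comparison. Against control the glabridin value was 0.12 ± 0.19 (edgeR adjusted p = 0.578), and it was -0.15 without glabridin replicate 3 and 0.34 without glabridin replicate 2 (edgeR adjusted p = 0.0228). So the level relative to control rested on single libraries, while the rise over melanosome libraries stayed between 0.70 and 1.18 whichever library was left out.

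The VMP1 to TMEM41B ratio of TPM was 2.06 in glabridin, 3.004 in melanosome and 1.22 in control libraries. The log2 ratio was higher by 1.30 in melanosome than in control libraries, where the groups were apart (exact two-sided permutation p = 0.1, 0.2 adjusted over 12). It differed by -0.54 in glabridin against melanosome libraries, with overlap (exact two-sided permutation p = 0.3), and was 0.76 higher in glabridin than in control libraries, with the groups apart (exact two-sided permutation p = 0.1). VMP1 supplied 67.0% ± 8.27 of the summed TPM of the pair in glabridin, 75.0% ± 1.27 in melanosome and 54.9% ± 1.38 in control libraries.

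**Figure D3:**
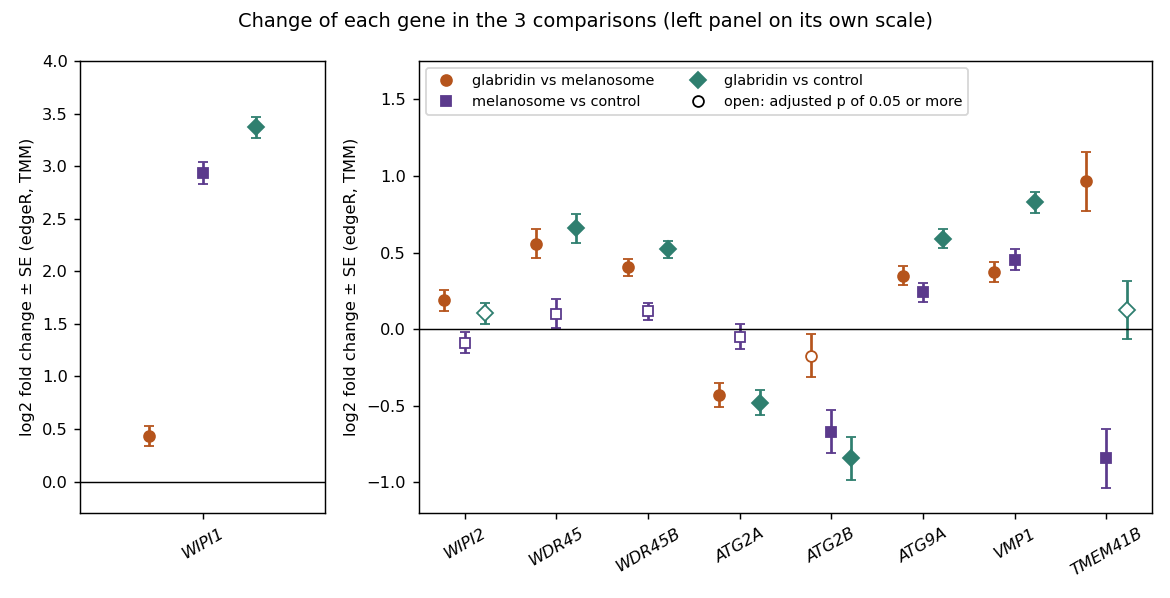
Log2 fold change ± SE from edgeR (y axis, linear) for each gene (x axis) in the 3 comparisons, with WIPI1 on its own scale at the left; open symbols have an adjusted p of 0.05 or more. WIPI1 reaches 2.94 with melanosomes against control and 0.43 with glabridin against melanosomes, and TMEM41B has opposite signs in those comparisons, -0.84 and 0.96.

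The plot of fold changes sets the comparisons side by side. Levels can be ordered across genes only per length, and the gene lengths behind the deposited TPM are not stated. Lengths implied by the FPKM differ from the GENCODE exonic bases. They were 4741 to 4743 against 8977 for WIPI2, 3420 to 3421 against 6916 for VMP1 and 7865 to 7870 against 4724 for ATG9A. The order under other lengths was not tested. In control libraries WDR45B was first at 103.7 TPM, followed by WIPI2 at 74.7, VMP1 at 48.9, TMEM41B at 40.2, ATG9A at 37.5, ATG2A at 31.0, WDR45 at 26.1, WIPI1 at 9.98 and ATG2B at 4.11, and no neighbours in that order overlapped. WIPI1, eighth in control, was second to WDR45B in both other groups, at 103 TPM in glabridin and 86.6 TPM in melanosome libraries. In melanosome libraries WIPI2 and VMP1 overlapped, as did ATG2A and WDR45. In glabridin libraries ATG9A, TMEM41B and WDR45 overlapped in turn, at 56.2, 44.1 and 40.9 TPM. The 9 genes summed to 583 ± 9.08 TPM in glabridin, 514 ± 11.1 in melanosome and 376 ± 7.12 in control libraries (SD, n = 3 each).

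Libraries of the glabridin group differed among themselves more than those of the other groups for several genes. In CPM glabridin replicate 2 had the highest WIPI1, WIPI2, WDR45, WDR45B, ATG2A and VMP1 of the group and the lowest TMEM41B and ATG2B. In TPM this held for WIPI1, ATG2A, TMEM41B and ATG2B only. There replicate 1 had the highest WIPI2 and WDR45, and replicate 3 the highest WDR45B and VMP1. Within the group, replicate 2 also had the highest melanocyte marker sum. It had the lowest sum of endoplasmic reticulum and stress markers, at 8026 CPM against 10383 and 10157 in replicates 1 and 3. Whether these go with the spread of the 9 genes was not tested. With each library left out in turn, between 7 and 9 of the 9 genes were called in glabridin against melanosome. Between 5 and 6 were called in melanosome against control and between 7 and 8 in glabridin against control. Among all genes, of which 14050 to 14077 were tested in these fits, 4838 to 7332 were then called in glabridin against melanosome. The numbers were 7499 to 9810 in melanosome against control and 9039 to 10511 in glabridin against control. With all 9 libraries the shares of all genes called were 43.9%, 62.5% and 70.3% in that order of comparisons.

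The genes that act around the phagophore were described from lists, beside medians over all genes of 0.01 in glabridin against melanosome and -0.06 in melanosome against control (log2). Over all genes tested 23.7% rose and 20.2% fell in glabridin against melanosome libraries, 43.9% in all, and 29.5% rose and 33% fell in melanosome against control libraries, 62.5% in all. Of 13 genes of the initiation kinase and PI3-kinase complexes, 8 rose and 3 fell with glabridin against melanosomes, with a median of 0.39. ATG101, a subunit of the ULK complex, rose by 1.13 ± 0.07, and AMBRA1, a regulator of both complexes, by 0.82 ± 0.08. With melanosomes against control 2 rose and 4 fell, among them ULK2, an initiating kinase, at 2.15 ± 0.14, and PIK3C3, the PI3P-making lipid kinase, at -0.65 ± 0.08. Of 8 genes tested from the list for phosphoinositide turnover, 1 rose and none fell with glabridin, and 3 rose and 3 fell with melanosomes. MTMR3, a PI3P phosphatase, was the gene that rose with glabridin, by 0.37 ± 0.06.

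Genes that act after PI3P is made showed mixed directions. Of 9 ATG8 and ATG4 genes tested, 5 rose and 1 fell with glabridin, with MAP1LC3B at 0.98 ± 0.08 and GABARAPL1 at 0.60 ± 0.06, both ATG8 proteins. With melanosomes against control 1 rose, MAP1LC3A at 1.06 ± 0.15, and 2 fell. Of 8 conjugation genes, 4 rose and 2 fell with glabridin, with ATG12 at 0.58 ± 0.10 and ATG16L1, the WIPI2 partner, at 0.40 ± 0.07. With melanosomes 2 rose and 4 fell, TECPR1 at 1.42 ± 0.10 and ATG16L2 at -0.73 ± 0.14 having the smallest p. Of 13 genes for fusion with lysosomes, 2 rose and 2 fell with glabridin, a smaller share than the 43.9% of all genes, and 3 rose and 5 fell with melanosomes, a share near the 62.5% of all genes. YKT6, a SNARE, rose by 0.80 ± 0.06 with glabridin, and STX17, another SNARE, was at -0.59 ± 0.13 with melanosomes. EPG5 went the other way in each comparison, at -0.36 ± 0.08 with glabridin and 0.43 ± 0.08 with melanosomes.

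The lists nearest to ATG9A and ATG2 differed from each other in their counts. Of 12 ATG9 trafficking genes, 7 rose and none fell with glabridin against melanosomes (median 0.35), beside 23.7% and 20.2% of all genes. With melanosomes against control 3 rose and 5 fell (median -0.06), a share near the 62.5% of all genes. ARFIP2, found on ATG9A vesicles, rose by 0.86 ± 0.06 with glabridin, and RUSC2, which moves them along microtubules, by 0.55 ± 0.08. Of 8 other bridge-like lipid transfer genes, relatives of ATG2 in shape, none rose and 6 fell with melanosomes (median -0.60), with VPS13C at -1.43 ± 0.15 and BLTP1 at -1.34 ± 0.17. These values are without offsets on GC content and length, with which the ATG2B change with melanosomes shrank from -0.67 to -0.27. Whether the falls in this list would shrink too was not tested. With glabridin against melanosomes 2 of the 8 bridge-like genes rose and 1 fell, and BLTP3A was at 0.93 ± 0.17. Of the 3 close paralogs ATG9B, TMEM41A and TMEM64, none was called with glabridin, and with melanosomes TMEM64 rose by 0.65 ± 0.17 while TMEM41A was at -0.31 ± 0.07. ATG9B was scarce, averaging at most 0.232 CPM in any group. These list values are from edgeR with calls at an adjusted p under 0.05, and no test of a list was made.

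Some regulators and other markers were called as well. In melanosome against control libraries 62.5% of all genes tested were called, 29.5% higher and 33% lower. In glabridin against melanosome libraries 43.9% were called, 23.7% higher and 20.2% lower. MITF, the melanocyte factor of the MiT/TFE group, was at 4.38 ± 0.10 with melanosomes against control and at -0.92 ± 0.08 with glabridin against melanosomes (edgeR adjusted p = 9.27e-10 and 1.23e-05). TFE3, a factor of lysosomal and autophagy genes, rose by 0.72 ± 0.07 with glabridin (edgeR adjusted p = 1.29e-05). With melanosomes against control TFE3 was at -0.07 ± 0.07 (edgeR adjusted p = 0.396). TFEB, of the same group, was called in neither comparison, at -0.04 ± 0.08 with glabridin and -0.02 ± 0.08 with melanosomes (edgeR adjusted p = 0.716 and 0.822). The 10 endoplasmic reticulum and integrated stress markers rose in all 10 cases with glabridin against melanosomes, with a median of 2.14, and HSPA5, a chaperone, was at 3.54 ± 0.10. With melanosomes against control 4 rose, with ASNS at 3.42 ± 0.11 and DDIT3 at 0.96 ± 0.07, and 1 fell, HSPA5 at -0.42 ± 0.09. The 10 markers summed to 8026 to 10383 CPM in glabridin, 1261 to 1314 in melanosome and 1372 to 1386 in control libraries. HSPA5 was the largest part of that sum in each group, averaging 5795 CPM in glabridin, 499 in melanosome and 666 in control libraries. The part of these markers in the changes of the 9 genes was not tested. Of the 15 melanocyte markers 15 rose with melanosomes, and with glabridin against melanosomes 1 rose and 5 fell. Of 8 keratinocyte markers 2 rose and 4 fell with melanosomes, and 4 rose and 1 fell with glabridin. Of 4 fibroblast markers tested 1 rose and 2 fell with melanosomes, and 2 fell with glabridin.

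Likeness in pattern was measured as Pearson's r of log2 CPM over the 9 libraries against 11137 genes with a mean log2 CPM of at least 1. The 5 genes most like WIPI1 were SGK1 (r = 0.999), UBE2S (0.999), ALDH2 (0.998), PDK4 (0.998) and GDF15 (0.998), and 836 genes had an r of at least 0.95. SGK1, a stress-responsive kinase, averaged 174 CPM in glabridin, 96.8 in melanosome and 1.91 in control libraries. All 5 had their lowest mean CPM in control libraries, PDK4 being at 0 there. The 5 genes most like TMEM41B were USO1 (0.996), TRAM1 (0.995), ATXN1 (0.995), SLC38A1 (0.994) and RAB33B (0.991), and 146 genes had an r of at least 0.95. USO1, a vesicle tether between the endoplasmic reticulum and the Golgi, averaged 129 ± 36.3 CPM in glabridin, 75.6 ± 6.12 in melanosome and 125 ± 3.89 in control libraries (SD, n = 3 each). The 9 libraries fall into 3 groups, so steps between groups weigh on r, and genes with a high r may differ in size of change. PDK4 averaged 401 CPM in glabridin and 119 in melanosome libraries, UBE2S 178 and 150. These values of r are descriptions.

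**Figure D4:**
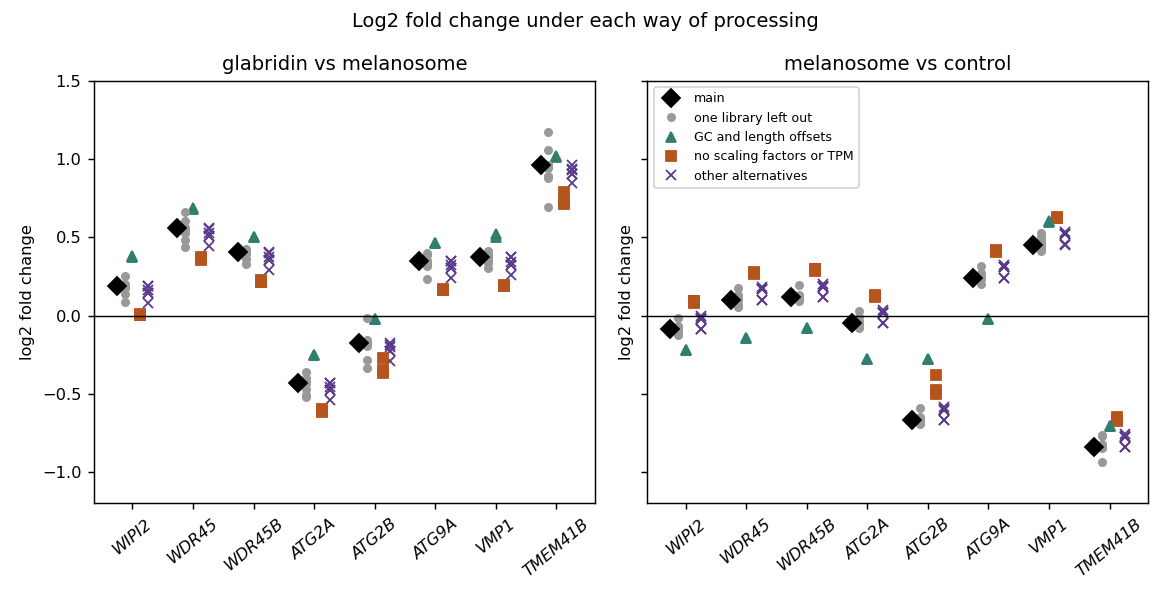
Log2 fold change (y axis, linear) of 8 genes (x axis; WIPI1 is left out because of its scale) in glabridin against melanosome and in melanosome against control libraries, each point being the value under 1 way of processing. Between glabridin and melanosome libraries the points of each gene stay on 1 side of 0, while between melanosome and control libraries those of WIPI2, WDR45, WDR45B, ATG2A and ATG9A lie on both sides.

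The plot of alternatives shows that scaling shifted the genes together. In glabridin against melanosome libraries, library totals alone gave 0.38 for WDR45, 0.23 for WDR45B, 0.17 for ATG9A, 0.19 for VMP1, 0.79 for TMEM41B and -0.61 for ATG2A, all still called by edgeR. Offsets on GC content and length shifted them the other way, to 0.69 for WDR45, 0.50 for WDR45B, 0.46 for ATG9A, 0.52 for VMP1, 1.02 for TMEM41B and -0.25 for ATG2A. The rises of WIPI1 and VMP1 and the falls of ATG2B and TMEM41B in melanosome against control libraries were called under each of the 20 alternatives.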

How the data were processed

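Poly(A) RNA of HaCaT cells was made into dUTP strand-marked libraries and sequenced as read pairs, per the labels' protocols. The authors' tables hold raw counts beside TPM and FPKM of the same genes, per the file headers. The build is hg38 per the submitters' processing notes, while aligner, counting program, strand setting and gene annotation were not given in the sources used here. Groups came from the sample titles.

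Counts as deposited were tested with edgeR 4.0.16 (quasi-likelihood, TMM, filterByExpr, R 4.3.3) in 1 fit of 9 libraries with group as the only term. Benjamini-Hochberg adjustment covered the 13912 genes that passed the filter, among them all 9 described genes. SE is the log2 change divided by the square root of F, and CPM uses TMM-scaled totals. TPM as deposited gave levels per length and ratios of paralogs, tested by exact permutation. The FPKM served only to check length, which varied by at most 0.712% between libraries. Alternatives were RLE, upper-quartile or no factors, no filter, DESeq2 1.42.0, limma 3.58.1 on log2(TPM + 1) and log2(TPM + 0.1), offsets on GC content and length, a replicate block, only the 2 groups compared, and each library left out. Scripts were tested on simulated counts.

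The genes and lists were chosen with earlier results of these data known. From each list the text names the 2 genes with the smallest edgeR p in glabridin against melanosome and in melanosome against control libraries, or fewer, and for likeness the 5 genes with the highest r to WIPI1 and to TMEM41B, the other gene with the largest change with glabridin. ARSG, PRAF2, AC068946.2 and MIR21 are named for overlap, TFEB as the other tested gene of its list, and PMEL and GPNMB as large parts of the melanocyte marker sum. The keratinocyte markers are all named. Positions are from GENCODE release 29 (GRCh38) and promoters from RefSeq (GRCh38.p14), which had a window for 8 of the 9 genes.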

Additional observations from a re-analysis of the deposited data

How the results depend on the processing

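Of 180 member values under alternatives per comparison, 162 kept direction and side of the threshold in glabridin against melanosome, 146 in melanosome against control and 175 in glabridin against control libraries. Those that turned, in melanosome against control, were WIPI2 at 0.080 with no factors, 0.093 with limma on log2(TPM + 1) and 0.094 on log2(TPM + 0.1). ATG2A was at 0.019 with RLE, 0.022 with upper quartile, 0.019 with DESeq2, 0.12 with no factors, 0.13 with limma at either pseudocount, 0.034 with only the 2 groups and -0.082 to 0.027 with 1 library left out. With offsets on GC content and length, alone and with the replicate block, WDR45 was at -0.14 and -0.14, WDR45B at -0.079 and -0.079 and ATG9A at -0.023 and -0.023. In glabridin against control, TMEM41B ran from -0.15 to 0.34 with 1 library left out and was 0.31 with offsets (edgeR adjusted p = 0.0128), and WIPI2 was called without glabridin replicate 3, at 0.17 (edgeR adjusted p = 0.0198). Calls gained in melanosome against control were WIPI2 at -0.22 and ATG2A at -0.28 with offsets, WDR45 at 0.18 to 0.28 with no factors, limma or only the 2 groups, and WDR45B at 0.19 to 0.30 with RLE, upper quartile, no factors, DESeq2, limma, only the 2 groups or without glabridin replicate 1 and at 0.12 without glabridin replicate 2. The WDR45 to WDR45B log2 ratio in melanosome against control, -0.019 as reported, ran from -0.065 to 0.016 with 1 library left out. The cause of these was not tested. All 17 calls lost in glabridin against melanosome were of WIPI2, and ATG2B was called there without glabridin replicate 3, at -0.34 (edgeR adjusted p = 0.0281). The share of called genes that were higher was, in glabridin against melanosome, 38.0% with upper quartile, 27.6% with limma, 68.6% with offsets and 41.4% without glabridin replicate 1, against 54.0% as reported, and, in melanosome against control, 68.5% and 69.1% with limma, against 47.2%. No pairing of libraries by replicate number was seen, though 3 libraries a group are too few to exclude it. Deviations of same-numbered libraries correlated by -0.234 to 0.0503. Of 6 libraries, 1 correlated best with its own number in glabridin against melanosome. The number was 2 in melanosome against control and 3 in glabridin against control. The replicate block called 5523 genes against 6111 in glabridin against melanosome, 8255 against 8691 in melanosome against control and 9507 against 9774 in glabridin against control. It ended the WIPI2 call between glabridin and melanosome libraries (edgeR adjusted p = 0.0637) and, for paralog ratios, allows no p below 0.25. Depth limits ATG2B most, with 367 counts in its lowest library.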
